A study of Mus musculus with 6 samples.

Results

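The genes described here encode the working parts of the lysosome: its cathepsins and other proteases, the enzymes that take apart glycans and lipids, proteins of its membrane, the transcription factor TFEB and the cathepsin inhibitor cystatin C. They form a list of 36 named genes, of which 34 have a row of their own among the 30176 genes with such a row on the array. Ctsd, the aspartic protease cathepsin D, and Glb1, the lysosomal beta-galactosidase, sit on rows that also carry the symbol of another gene, so no value is given for them. A gene with more than 1 row is represented by the row with the highest mean over all arrays, which among the 34 concerns Arsb.

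RNA came from aggregates of R1 mouse embryonic stem cells, a single line, grown inside microcapsules with a liquid core and an alginate shell. In the 3 samples after pre-differentiation, aggregates had spent 7 days in embryonic stem cell medium with LIF and then 3 days in regular DMEM with BMP-4 and bFGF. In the 3 samples before pre-differentiation, they had spent the 7 days only, so time in culture and loss of LIF and Knockout serum cannot be told apart from the 2 growth factors. Each sample is called a biological replicate by its label and was hybridised to 1 Clariom D array, and the study asked how gene expression differed once the aggregates were directed towards the early cardiac stage.

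Lysosomes are acidic organelles that digest material delivered by endocytosis and autophagy. Most of their soluble enzymes are made in the endoplasmic reticulum, tagged with mannose 6-phosphate in the Golgi and carried onwards by receptors, and a proton pump in the membrane keeps the interior acidic. TFEB and related factors bind an E-box within the so-called CLEAR element in the promoters of many lysosomal genes. The extraembryonic endoderm of the mouse embryo is known for its high uptake and lysosomal breakdown of maternal proteins.

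The arrays were not alike within the groups. A principal component analysis of the most variable rows, whose axis of greatest variance took 76.6%, placed after replicate 1 at -2.5, between after replicates 2 and 3 (131.4 and 130.9) and the before arrays (-109.3 to -63.9). The mean log2 signal over 10 markers of undifferentiated cells was 11.37, 6.19 and 6.76 in after replicates 1, 2 and 3, against 12.52, 11.86 and 12.31 in before replicates 1, 2 and 3. Results are therefore also given without after replicate 1. Over 13 parietal endoderm markers the mean was 12.14, 12.79 and 13.50 after and 8.32, 8.48 and 7.89 before. Over 12 visceral endoderm markers it was 9.18, 11.42 and 10.02 after and 5.70, 5.72 and 6.09 before. At an adjusted p under 0.05 from limma, 9 of the 13 and 2 of the 12 were higher, against 1.24% of all genes. Of the 10 markers of undifferentiated cells 0 were higher and 0 lower at that threshold, against 1.24% and 0.65%, and Klf4 had a higher mean after. Over 9 fibroblast and mesenchyme markers the mean was 6.15, 12.15 and 9.06 after and 4.60, 4.56 and 4.56 before, and over 8 trophoblast markers it was 5.14, 5.99 and 5.73 after and 4.75, 4.77 and 4.88 before, with 0 of either list past the threshold. The part of these cell types in the lysosomal values was not tested, and in RNA of whole aggregates fewer cells of a type and less RNA per cell cannot be told apart. Signals are read against a background level of 4.27, under which 95% of 1716 olfactory and vomeronasal receptor genes had their mean log2 signal.

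Sequences upstream of these genes show how often the E-box occurs in them. RefSeq promoter windows (GRCm38.p6), each running from 250 bases before to 50 bases after a transcription start, were found for 33 of the 36 genes. The E-box core CACGTG, which reads the same on both strands, stood in 13 of 38 windows (34.2%), against 7.15% of all 32851 windows. The core preceded by T on either strand, TCACGTG, stood in 11 windows (28.9%), against 3.77% of all. These 11 are among the 13. Median GC content was 55.7% in the windows of the lysosomal genes and 52.7% in all windows. The element was first described in lysosomal genes, so the share describes the list. The following 4 windows are shown because Lamp1, Arsa and Gaa rose after pre-differentiation and carry the core (in capitals), while Gla carries it and its groups overlapped. The window of Lipa, which also rose, is shown as one without the core.
Lamp1, chr8:13158911-13159210, plus strand: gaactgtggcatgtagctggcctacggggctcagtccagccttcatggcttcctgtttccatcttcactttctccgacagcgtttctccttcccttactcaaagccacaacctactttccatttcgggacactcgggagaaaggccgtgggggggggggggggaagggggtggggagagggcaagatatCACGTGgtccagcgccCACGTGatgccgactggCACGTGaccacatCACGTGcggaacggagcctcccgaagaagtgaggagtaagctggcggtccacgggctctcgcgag
Arsa, chr15:89477375-89477674, minus strand: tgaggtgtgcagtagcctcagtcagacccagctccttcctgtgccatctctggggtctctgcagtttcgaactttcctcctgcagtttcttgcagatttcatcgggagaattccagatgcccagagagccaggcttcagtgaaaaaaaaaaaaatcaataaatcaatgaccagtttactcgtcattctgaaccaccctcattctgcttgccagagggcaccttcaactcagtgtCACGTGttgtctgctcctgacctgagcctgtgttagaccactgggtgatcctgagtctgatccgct
Gaa, chr11:119267713-119268012, plus strand: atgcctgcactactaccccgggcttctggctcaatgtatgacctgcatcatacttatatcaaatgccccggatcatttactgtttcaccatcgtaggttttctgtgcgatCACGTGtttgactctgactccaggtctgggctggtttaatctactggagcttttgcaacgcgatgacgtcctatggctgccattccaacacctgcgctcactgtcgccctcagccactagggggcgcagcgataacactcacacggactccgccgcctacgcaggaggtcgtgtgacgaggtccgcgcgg
Gla, chrX:134600956-134601255, minus strand: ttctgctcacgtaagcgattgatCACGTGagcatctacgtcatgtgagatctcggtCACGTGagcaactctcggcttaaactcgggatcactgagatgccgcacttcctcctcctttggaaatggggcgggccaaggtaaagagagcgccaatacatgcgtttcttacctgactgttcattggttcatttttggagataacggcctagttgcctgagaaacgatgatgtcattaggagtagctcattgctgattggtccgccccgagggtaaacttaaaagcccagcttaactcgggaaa
Lipa, chr19:34527425-34527724, minus strand: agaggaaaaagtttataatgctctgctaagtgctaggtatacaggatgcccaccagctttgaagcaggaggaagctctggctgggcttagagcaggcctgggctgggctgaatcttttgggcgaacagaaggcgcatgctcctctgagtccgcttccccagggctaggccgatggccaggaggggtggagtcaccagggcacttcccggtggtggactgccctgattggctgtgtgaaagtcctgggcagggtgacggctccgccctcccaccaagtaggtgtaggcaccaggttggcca
Lamp1 carries 4 cores, which begin 61, 45, 28 and 15 bases before its start, and Gla carries 2.

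**Figure D1:**
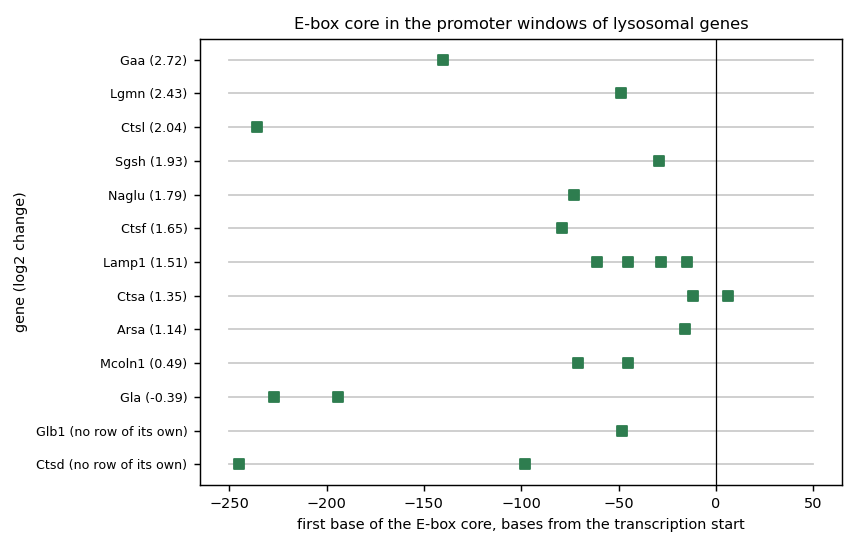
Position of the E-box core in the promoter windows of the 13 lysosomal genes that hold it, in bases from the transcription start (horizontal axis, with 0 at the start), with each gene's log2 change after minus before pre-differentiation in brackets (none for Glb1 and Ctsd). The grey lines span the window from 250 bases before to 50 bases after the start, and Lamp1 has 4 cores.

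Most of the list had a higher mean signal after pre-differentiation, and 6 genes passed the test. These were the acid lipase gene Lipa, the acid alpha-glucosidase gene Gaa, the prosaposin gene Psap, the membrane protein gene Lamp1, the iduronidase gene Idua and the arylsulfatase A gene Arsa. They make up 6 of 34 genes (17.6%), against 1.24% of all 30176 genes higher at an adjusted p under 0.05 from limma. None of the 34 was lower at that threshold, where 0.65% of all genes were. Without adjustment, at a limma p under 0.05, 25 were higher and 1 was lower, against 10.9% and 19.7% of all genes. The 3 after arrays were all above the 3 before arrays in 25 of the 34 (73.5%), against 11.8% of all genes, and all below in 1, against 28.2%, while the groups overlapped in 8. The mean was higher in 30 of the 34, against 31.7% of all genes, and the median log2 change was 1.7, against -0.16 for all genes. With quantile normalization 10 were higher and 0 lower (1.76% and 0.633% of all genes), and with each array centred on its median 8 and 0 (1.61% and 0.447%). Without after replicate 1, 17 of the 34 were higher (50%) and 0 lower, against 7.8% and 7.48% of all genes. When any one of the other 5 arrays was left out, 0 of the 34 were higher by limma after adjustment (21 to 26 before it, the 26 without before replicate 3, against 9.35% of all genes), and of all genes 0 were, or 101 without before replicate 2.

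**Figure D2:**
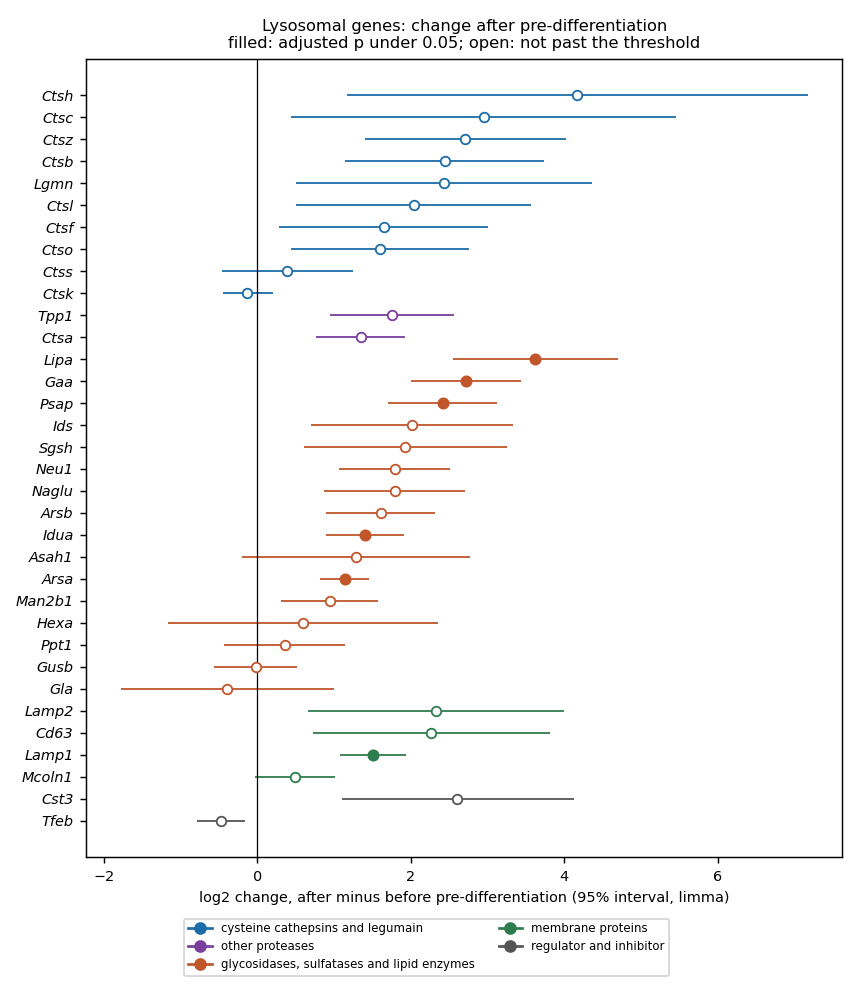
Log2 change after minus before pre-differentiation for the 34 lysosomal genes (horizontal axis, points) with 95% intervals from limma (bars), coloured by role. The 6 filled points, Lipa, Gaa, Psap, Lamp1, Idua and Arsa, passed an adjusted p under 0.05, and the point farthest to the right, Ctsh at 4.17, did not.

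The enzymes that break down lipids, glycogen and glycosaminoglycans held 5 of the 6 genes that passed. Of 16 such genes measured, 5 were higher (31.2%) and 0 lower, against 1.24% and 0.65% of all genes, or 11 (68.8%) and 0 before adjustment, against 10.9% and 19.7%. The median log2 change was 1.51, with a range of -0.39 to 3.62. Lipa, which hydrolyses cholesteryl esters and triglycerides taken up with lipoproteins, had log2 signals of 11.55, 12.89 and 12.29 after pre-differentiation and 8.10, 8.49 and 9.27 before. The nearest arrays of the 2 groups were 2.28 log2 units apart. Its log2 change was 3.62 (standard error 0.44, adjusted p = 0.039), or 12.3-fold.

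Gaa, which digests glycogen in the lysosome, was at 11.39, 11.43 and 11.77 after and at 9.17, 9.06 and 8.19 before. Its 3 after arrays lay close together, and its log2 change was 2.72 (standard error 0.29, adjusted p = 0.0353). Psap encodes the precursor of the saposins, small proteins that present sphingolipids to their hydrolases, and was at 14.60, 15.46 and 15.68 after and at 12.79, 12.79 and 12.91 before. The before arrays of Psap differed by less than the after arrays, of which replicate 1 was the lowest. The log2 change of Psap was 2.42 (standard error 0.29, adjusted p = 0.0385).

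The 2 other enzyme genes that passed had smaller changes with a narrow spread. Idua, needed for the breakdown of heparan and dermatan sulfate, was at 7.28, 7.35 and 7.68 after and 5.85, 6.39 and 5.83 before (log2 change 1.41, standard error 0.21, adjusted p = 0.0479). Arsa, which removes sulfate from sulfatides, was at 6.03, 5.89 and 5.80 after and 4.62, 4.87 and 4.82 before (log2 change 1.14, standard error 0.13, adjusted p = 0.0371). All 5 were also higher without after replicate 1, with adjusted p between 0.00221 and 0.0265, where 7.8% of all genes were higher. None of them passed when any one of the other arrays was left out.

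**Figure D3:**
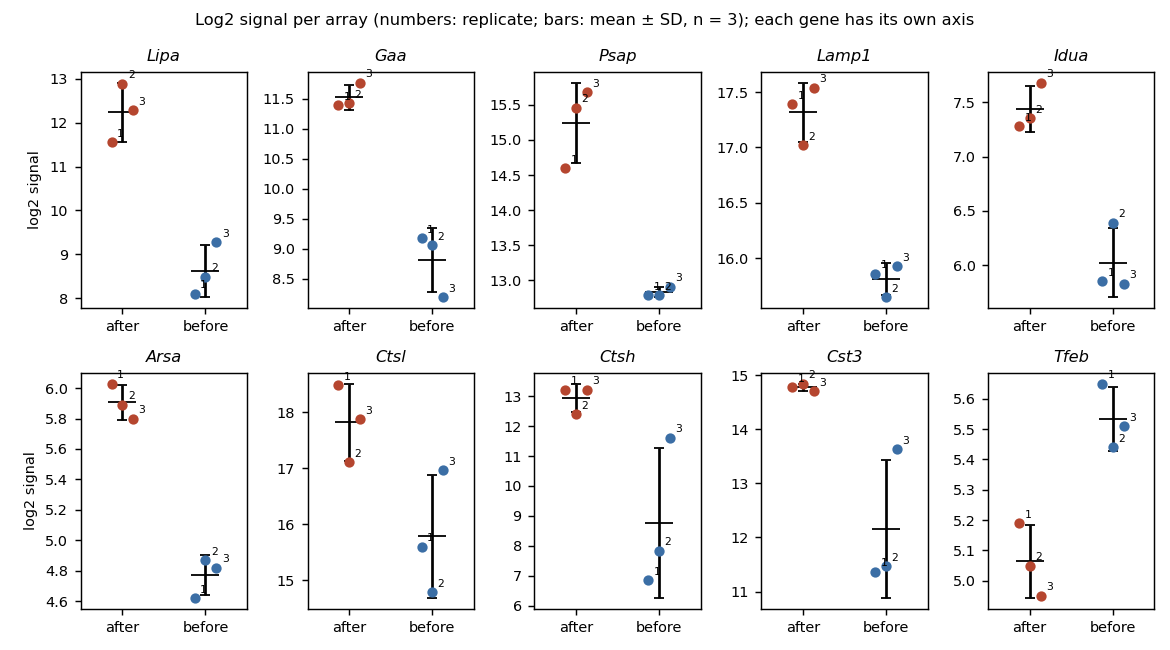
Log2 signal on each array (vertical axes, one scale per gene) for the 6 genes that passed the test and for Ctsl, Ctsh, Cst3 and Tfeb, with after arrays in red, before arrays in blue, replicate numbers beside the points and bars for the mean ± SD (n = 3). In Ctsl, Ctsh and Cst3 before replicate 3 lies above before replicates 1 and 2, and in Tfeb the after arrays lie below.

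In 4 genes of heparan and dermatan sulfate breakdown, singled out after their values were seen, the after arrays were apart from each other. The means of the fibroblast and mesenchyme, parietal endoderm, visceral endoderm and trophoblast markers were also lowest on after replicate 1. Of these, the parietal endoderm mean was highest on after replicate 3 and the others on after replicate 2. Not every marker followed its mean. Cubn, Amn and Hnf4a of the visceral endoderm list were highest on after replicate 1. So were Dab2 of the parietal endoderm list and Eomes and Ascl2 of the trophoblast list. The part of these cell types here was not tested. Ids, the iduronate 2-sulfatase gene, was at 6.78, 8.39 and 8.83 after and 5.98, 6.21 and 5.74 before. Sgsh, the sulfamidase gene, was at 6.09, 7.50 and 8.19 after and 5.30, 5.64 and 5.05 before. Naglu, the alpha-N-acetylglucosaminidase gene, was at 5.94, 7.18 and 7.31 after and 5.04, 5.01 and 5.02 before. In these 3 genes, and in the arylsulfatase B gene Arsb, after replicate 1 was the lowest of the after arrays but above every before array. None of the 4 passed with all arrays (adjusted p between 0.0608 and 0.119), and without after replicate 1 all 4 were higher, with log2 changes of 2.63 for Ids, 2.52 for Sgsh, 2.22 for Naglu and 1.91 for Arsb and adjusted p between 0.00271 and 0.0116. Arsb depended on its row, with a log2 change over all arrays of 1.61 from the brighter row and 0.68 (adjusted p = 0.0899) from the mean of its 2 rows. After replicate 1 was the lowest of the after arrays in 17 of the 34 lysosomal genes (50%) and in 34.6% of all genes, and the highest in 14 (41.2%), against 46.4% of all genes.

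In some other hydrolase genes the groups overlapped. In Hexa, which encodes the alpha subunit of beta-hexosaminidase and was singled out after its values were seen, arrays lay at 13.02, 12.03 and 12.36 after and at 11.40, 10.76 and 13.44 before, so that the highest array was before replicate 3 (log2 change 0.60, standard error 0.71, adjusted p = 0.606). Gla, the alpha-galactosidase A gene, differed by -0.39 on the log2 scale (standard error 0.57, adjusted p = 0.674) or 0.13 without before replicate 3. Gusb, the beta-glucuronidase gene, differed by -0.02 (standard error 0.22, adjusted p = 0.951), with a 95% interval of -0.56 to 0.52, and its direction turned under either rescaling of the arrays. The groups also overlapped in the palmitoyl thioesterase gene Ppt1 (0.36) and the acid ceramidase gene Asah1 (1.29), while the sialidase gene Neu1 (1.79, adjusted p = 0.0548) and the alpha-mannosidase gene Man2b1 (0.95, adjusted p = 0.116) had separate groups.

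The cysteine cathepsins, papain-like proteases that work at acidic pH, averaged higher in the after arrays in 9 of 10 genes, legumain included. Of the 10, 0 passed limma's test, where 1.24% of all genes were higher. Before adjustment 8 were higher (80%) and 0 lower, against 10.9% and 19.7% of all genes. By the methods' test before adjustment 4 were higher, for which no share of all genes is given. In 8 the groups did not overlap, with the after arrays above, against 11.8% of all genes, and the median log2 change was 2.24. Ctsh, an aminopeptidase of this family, was at 13.22, 12.39 and 13.22 after and at 6.86, 7.83 and 11.62 before. The before arrays thus spanned more than the distance from before replicate 3 to the after arrays, and the difference was 4.17 on the log2 scale (standard error 1.22, adjusted p = 0.128). Without before replicate 3 it was 5.60 (adjusted p = 0.0616).

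The same array stood above the other before arrays in the broad endopeptidase genes. Ctsl was at 18.48, 17.11 and 17.87 after and at 15.60, 14.79 and 16.96 before (log2 change 2.04, standard error 0.62, adjusted p = 0.136). Ctsb was at 16.31, 16.33 and 16.40 after and at 13.75, 12.90 and 15.05 before (log2 change 2.45, standard error 0.53, adjusted p = 0.0803). In both genes the groups were separate, by 0.15 log2 units in Ctsl and 1.26 in Ctsb.

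In 3 further cysteine protease genes, named after their values were seen, after replicate 1 was the highest array. Ctsc, which activates granule serine proteases by removing dipeptides, was at 12.65, 9.92 and 9.27 after and 7.04, 6.95 and 9.0 before. Lgmn, the asparaginyl endopeptidase that processes other cathepsins, was at 16.05, 14.34 and 14.20 after and 12, 11.44 and 13.85 before. Ctsz, a carboxypeptidase, was at 15.05, 13.18 and 13.46 after and 10.68, 11.41 and 11.47 before. Of these, Ctsz was higher without after replicate 1 (log2 change 2.14, adjusted p = 0.0178), while Ctsc and Lgmn did not pass (1.93 and 1.84, adjusted p = 0.166 and 0.194).

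Ctsf and Ctso, also singled out after their values were seen, ran the other way between the after arrays, with after replicate 1 the lowest. Ctsf was at 6.58, 7.72 and 8.81 after and 5.73, 6.20 and 6.23 before, and Ctso at 4.53, 6.35 and 6.0 after and 3.93, 3.98 and 4.17 before, where all 3 before values lie under the background level. Both were higher without that array, by 2.21 in Ctsf (adjusted p = 0.0306) and 2.15 in Ctso (adjusted p = 0.00512).

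Ctsk and Ctss, the cathepsins known from osteoclasts and from antigen-presenting cells, lay near the background level and were likewise singled out afterwards. Ctsk was between 3.47 and 3.84 on all 6 arrays. Ctss was at 3.97, 5.14 and 3.97 after and 3.90, 3.83 and 4.18 before, so that after replicate 2 was the 1 array above the level. On that array 7 of 12 macrophage markers measured were above the background level, against 2 on each other after array and 1 on each before array, and the mean over the 12 was 5.17, against 3.88 and 3.85 in after replicates 1 and 3 and 3.83 to 3.90 before. The part of macrophage-like cells in the Ctss value was not tested. Of the 12, Ptprc, Adgre1, Tyrobp, C1qa, C1qc and Aif1 had means at or under the level in both groups. On after replicate 2, Lyz2 (8.03) and C1qb (7.71) stood highest, and the other markers lay between 4.04 and 5.79. Itgam, counted among the 7, was at 4.27 there, which equals the rounded level.

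**Figure D4:**
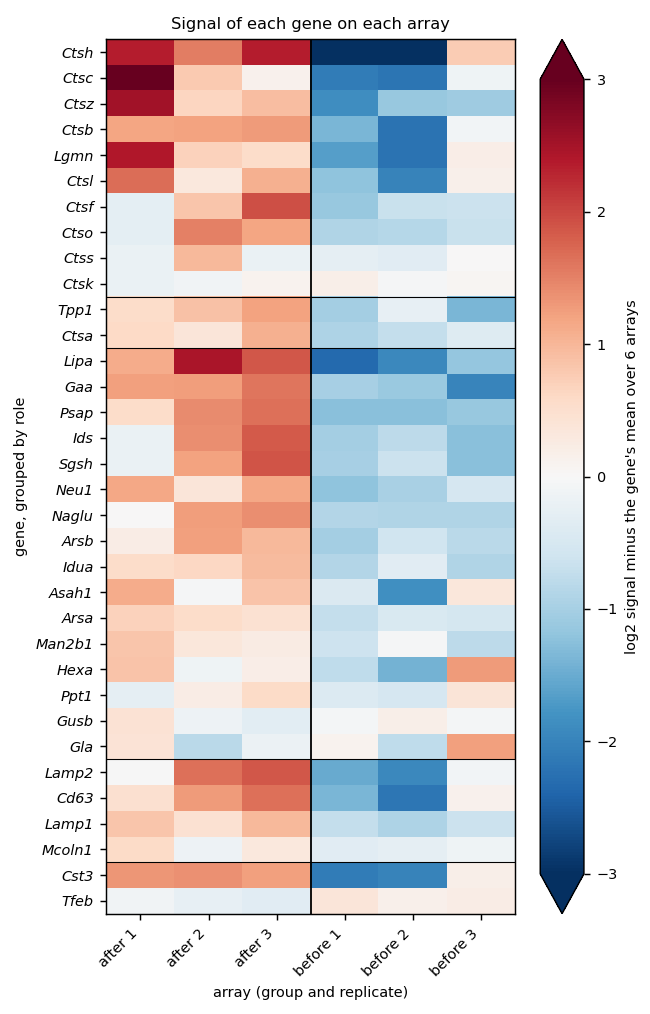
Log2 signal of the 34 lysosomal genes (rows, grouped by role) on each array (columns, after left of before), as the difference from the gene's own mean over the 6 arrays (colour, log2 units, colours saturate at 3). After replicate 1 is far above the gene's mean in Ctsc, Ctsz and Lgmn and close to it in Ids, Sgsh and Lamp2, where after replicates 2 and 3 are above it. Before replicate 3 is above the mean in Ctsh and Hexa and close to it in Cst3, where before replicates 1 and 2 are below.

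The other proteases measured were Tpp1 and Ctsa, and neither passed the test with all arrays. Tpp1, the tripeptidyl peptidase gene, was at 15.08, 15.43 and 15.75 after and 13.53, 14.29 and 13.16 before (log2 change 1.76, standard error 0.33, adjusted p = 0.0663). Ctsa, the serine carboxypeptidase that also protects the sialidase and beta-galactosidase, differed by 1.35 on the log2 scale (standard error 0.24, adjusted p = 0.0591). Both had separate groups and were higher once after replicate 1 was left out (adjusted p = 0.0397 for Tpp1 and 0.0479 for Ctsa).

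Among the membrane proteins, Lamp1 rose with little spread between the arrays. This heavily glycosylated protein lines the inner face of the lysosomal membrane, and its log2 signal was 17.39, 17.02 and 17.54 after and 15.86, 15.65 and 15.93 before. The difference was 1.51 on the log2 scale (standard error 0.18, adjusted p = 0.0376), or 2.85-fold. Its paralogue Lamp2 was at 13.72, 15.38 and 15.60 after and 12.23, 11.81 and 13.66 before, where after replicate 1 and before replicate 3 nearly met (log2 change 2.33, standard error 0.68, adjusted p = 0.127). Lamp2 was higher without after replicate 1, by 2.92 (adjusted p = 0.044). Cd63, a tetraspanin of late endosomes, differed by 2.27 on the log2 scale (standard error 0.63, adjusted p = 0.117). Mcoln1, the calcium release channel mucolipin-1, was at 8.28, 7.54 and 8.01 after and 7.35, 7.42 and 7.57 before, and the groups overlapped (log2 change 0.49, standard error 0.21, adjusted p = 0.215).

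Tfeb, which encodes the factor that switches on lysosomal genes, was the 1 gene of the list whose 3 after arrays were all below the 3 before arrays. Its log2 signal was 5.19, 5.05 and 4.95 after and 5.65, 5.44 and 5.51 before, so it differed by -0.47 (standard error 0.13, adjusted p = 0.112). With quantile normalization or median centring, 0 of the 34 genes were lower even at an unadjusted p under 0.05. Tfeb then differed by -0.29 in both (limma adjusted p = 0.3 and 0.289). In each, 1 of the 34 still had its after arrays all below its before arrays. Over all rows the deposited values had a median difference of -0.18, and TFEB protein, whose activity depends on its place in the cell, was not measured. Cst3, which encodes the secreted cathepsin inhibitor cystatin C, was at 14.78, 14.84 and 14.70 after and 11.37, 11.47 and 13.63 before. Its after arrays were close together and before replicate 3 stood between the groups (log2 change 2.61, standard error 0.62, adjusted p = 0.0918, or 3.35 with adjusted p = 0.0509 without before replicate 3).

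Before replicate 3 was the highest before array in 22 of the 34 genes (64.7%), against 50.2% of all genes. It lay at least 1 log2 unit above the mean of the other before arrays in 11 of the 34 genes, against 9.57% of all genes. They were Ctsh (4.27 above), Hexa (2.36), Cst3 (2.21), Lgmn (2.13), Ctsc (2.01), Cd63 (1.9), Ctsl (1.77), Ctsb (1.73), Lamp2 (1.64), Gla (1.55) and Asah1 (1.48), a set seen after the values were known. None of these 11 passed the test with all arrays. In Gaa and Tpp1 the same array was 0.93 and 0.74 below the others. On it the mean over 13 parietal endoderm markers was 7.89, below the 8.32 and 8.48 of before replicates 1 and 2, that over 12 visceral endoderm markers was 6.09, above their 5.70 and 5.72, and that over 12 macrophage markers 3.83, below their 3.86 and 3.90. Whether anything else about this culture moved with these genes was not tested. Without after replicate 1 and without before replicate 3 together, a choice made after the values were seen that leaves 2 arrays a group, 24 of the 34 were higher and 0 lower (1 lower at an unadjusted p under 0.05), against 7.71% of all genes higher. Across the 34 genes, the difference of before replicate 3 from the other before arrays and that of after replicate 1 from the other after arrays correlated at r = 0.38 (rho = 0.37), and across all 30176 genes at 0.15 (rho = 0.16). These are descriptions across genes of the same arrays, and genes are not independent replicates.

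**Figure D5:**
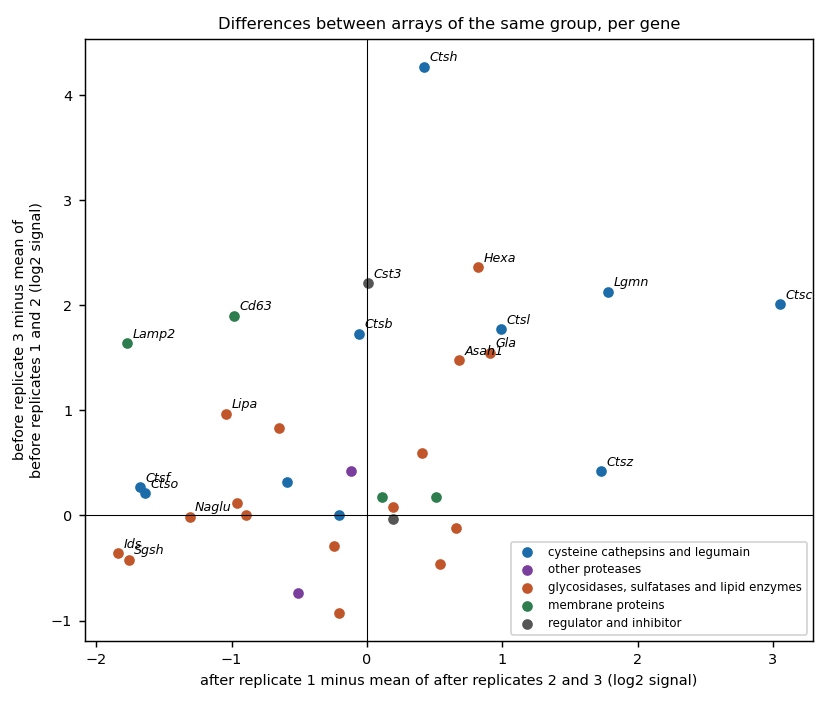
For each of the 34 lysosomal genes, the log2 signal of after replicate 1 minus the mean of after replicates 2 and 3 (horizontal axis) and that of before replicate 3 minus the mean of before replicates 1 and 2 (vertical axis), coloured by role. Ctsc, Lgmn and Ctsl are high on both axes, Ctsh stands highest on the vertical axis at 4.27, and Ids, Sgsh, Lamp2, Ctsf and Ctso are low on the horizontal axis.

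Genes with and without the E-box core in a promoter window had medians close to each other. Among measured genes with a window, the 11 with the core had a median log2 change of 1.65 (range -0.39 to 2.72) with 3 higher. The 20 without it had one of 1.68 (range -0.47 to 3.62) with 3 higher. Of all genes 1.24% were higher at the same adjusted p under 0.05. No test was run on the difference between genes with and without the core.

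Lists of other lysosomal genes were measured beside these. Of 169 other lysosomal genes measured out of 180 listed, 6 were higher and 1 was lower, where 1.24% and 0.65% of all genes were. Before adjustment 47 were higher and 16 lower, where 10.9% and 19.7% of all genes were, and the median log2 change was 0.28. Leaving out after replicate 1, 28 were higher and 5 lower, where 7.8% and 7.48% of all genes were. Of 21 subunits and accessory proteins of the proton pump 1 was higher, Atp6v0a1, a subunit of the part embedded in the membrane. It was at 13.30, 13.01 and 13.42 after and 10.03, 10.32 and 9.16 before (log2 change 3.41, standard error 0.32, adjusted p = 0.0276). The median over the pump was 0.09, with a range of -1.05 to 3.41.

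Of 33 other membrane proteins and transporters, 11 were higher and 1 lower at unadjusted p under 0.05 (10.9% and 19.7% of all genes). After adjustment 4 were higher and 0 lower. They were the sialomucin gene Cd164 at a log2 change of 1.0 (adjusted p = 0.0353), the heparan acetyltransferase gene Hgsnat at 2.37 (adjusted p = 0.0364), the cation channel gene Tpcn1 at 3.42 (adjusted p = 0.0371) and the cholesterol exporter gene Npc1 at 2.30 (adjusted p = 0.0412). Cd164 had the narrowest spread of these, at 15.51, 15.64 and 15.58 after and 14.53, 14.59 and 14.62 before. Of 29 genes of autophagy and lysosome fusion 1 was higher, Wipi1, which binds phosphoinositides on forming autophagosomes, at 2.37 (adjusted p = 0.0406), and 0 were lower. Before adjustment 11 of the 29 were higher and 6 lower at p under 0.05, against 10.9% and 19.7% of all genes.

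In 3 lists 0 genes passed limma's test. Of 25 other soluble hydrolases and their activators, 11 had a higher mean and 2 a lower one at p under 0.05 before adjustment, and Glmp, a glycosylated lysosomal membrane protein in this list, came nearest at 1.86 (adjusted p = 0.0518). Of 22 genes of sorting and mannose 6-phosphate tagging, 8 had a higher mean and 2 a lower one at that p, and Cln6, which helps enzymes leave the endoplasmic reticulum, came nearest at 1.92 (adjusted p = 0.0518). Of 22 genes for TFEB's relatives and for mTORC1 docking on the lysosome, 1 had a higher mean and 0 a lower one at that p, the GTPase gene Rragc at 1.01 (adjusted p = 0.141), and the median was 0.04. Of 17 other cathepsins and cathepsin inhibitors 0 were higher and 1 was lower, the placental cathepsin gene Ctsm at -0.75 (adjusted p = 0.0479). Its after arrays lay between 4.03 and 4.10, under the background level. Before adjustment 1 of the 17 was higher and 3 were lower at p under 0.05. For each list these unadjusted counts stand against 10.9% of all genes higher and 19.7% lower.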

How the data were processed

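The authors extracted total RNA from whole aggregates, hybridised biotin-labelled samples to Clariom D mouse arrays and processed them with Transcriptome Analysis Console. They deposited log2 signals for 72688 rows. The sources used here give neither the summarization and background correction nor the genome build. Array medians were between 4.17 and 4.47, and the number of arrays limits the precision.

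Groups were compared by two-sided tests on these deposited values with limma's lmFit and eBayes (version 3.58.1, R 4.3.3) over 72657 rows, with 31 AFFX control rows left out and Benjamini-Hochberg adjustment at 0.05. The 6701 control genes and spike-ins stayed in. Rows with 1 gene symbol in the platform annotation (30638) named genes. Genes given with every array are those past the threshold, the member with the largest change in each role group, members that ran against their role group at an unadjusted p under 0.05, and Lamp1, Ctsl, Ctsb, Mcoln1, Tfeb and Cst3. Others are marked in the text. For the other lysosomal lists, up to 2 genes past the threshold in each direction, or the nearest, were named, with Tpcn1 and Npc1 added after their values were seen. The members and lists were chosen with earlier results of these data known. The methods' test is the equal-variance comparison of 2 groups that the study's methods name for other measurements, run here gene by gene. They name none for the arrays. The other alternatives are those in the closing section. An exact permutation test of 3 arrays against 3 allows no p below 0.1, which a gene reaches when its groups do not overlap. Of the 34 genes 26 reached it. These are the same 25 with after arrays all above and 1 with them all below, against 11.8% and 28.2% of all genes, so this adds no second test.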

Additional observations from a re-analysis of the deposited data

How the results depend on the processing

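The count of lysosomal genes higher after pre-differentiation was 6 with all arrays and 10 with quantile normalization. It was 11 of the 32 tested with only rows above background (3.58% of the genes kept). It was also 11 with only the rows brighter than the median (3.66% of the genes kept). It was 2 with robust, trended variances (Gaa and Lipa, 0.457% of all genes), 21 by the methods' test without adjustment and 0 by it after adjustment (0 of all genes). The count lower was 0 in each of these but 1 by the methods' test without adjustment. Counts by the methods' test without adjustment, here and for the other lysosomal genes, are given without a share of all genes and cannot be read against one. With median centring 8 were higher and 0 lower. Of all genes, 373 were higher and 196 lower as deposited, 531 and 191 with quantile normalization and 486 and 135 with median centring. The count of other lysosomal genes higher was 6 with all arrays, 17 with rows above background, 18 with the brighter rows, 2 with robust, trended variances, 13 with control genes and spike-ins left out, and 36 and 0 by the methods' test before and after adjustment. The count lower was 1 with all arrays, 0 with quantile normalization, median centring, rows above background, the brighter rows, robust, trended variances or the adjusted methods' test, 2 without control genes and spike-ins and 13 by the methods' test without adjustment. Ctsk (0.03 and 0.05) and Gusb (0.18 and 0.16) turned direction with quantile normalization and median centring. The cause was not tested where the setting kept the same rows and arrays.

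Leaving out each array in turn gave 0 to 17 genes of the list higher, 0 to 28 other lysosomal genes higher and 0 to 5 lower, and 1 to 2 genes of the list lower without overlap. The log2 change of Gusb ran from -0.24 to 0.13 and that of Gla from -0.87 to 0.13. The median log2 change of the list ran from 1.49 to 1.88. Without after replicate 1 and without before replicate 3 together, a setting chosen after seeing the data, 24 genes of the list and 38 other lysosomal genes were higher, 6 other lysosomal genes were lower, 2 genes of the list were lower without overlap, the median was 2.06 and Gusb stood at -0.28.

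A fit with a replicate block left 0 genes of the list and, of other lysosomal genes, 0 higher and 0 lower past the threshold. Of all 30176 genes 0 were higher in that fit. At its unadjusted p under 0.05, 25 of the list were higher, for which no share of all genes is given. The labels join the arrays of the groups only by a number. Same-numbered arrays deviated from their group means with correlations of -0.034, 0.145 and -0.082, and differently numbered arrays with -0.13 to 0.136. As deviations from means of 3 arrays, these correlations cannot decide whether the cultures were paired.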
